A study of Homo sapiens with 6 samples.

Results

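Respiratory complex I (NADH:ubiquinone oxidoreductase) is the entry point for NADH electrons into the mitochondrial respiratory chain. The genes described here are the protein-coding genes whose symbols begin with NDUF, together with the assembly genes ACAD9, ECSIT, TMEM126B, TIMMDC1, FOXRED1, NUBPL and TMEM70. They number 55 of 58219 genes in the deposited tables: 37 nuclear-encoded subunits, 15 assembly factors and 3 genes that match the naming rule but are not complex I genes. Those 3 are NDUFA4, now assigned to complex IV, its paralog NDUFA4L2, and the read-through gene NDUFC2-KCTD14. For short, counts of complex I genes below include these 3, and counts of subunits or assembly factors do not.

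RNA was sequenced from U2OS, a human osteosarcoma cell line, after delivery of a scramble shRNA (control) or an shRNA against E4F1, a zinc finger transcription factor. Each group had 3 libraries, described by the submitters as independent pools, so each is a mixed population and not a clone. Both groups were infected for 24 h, then kept in puromycin for 48 h, and RNA was collected at 72 h. The labels name a single E4F1 hairpin group and a single scramble group. Effects of E4F1 loss, of the E4F1 hairpin and of the scramble hairpin in the controls therefore cannot be told apart.

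Complex I is built as an L, with an arm in the matrix that takes electrons from NADH through a flavin and a chain of iron-sulfur clusters to coenzyme Q, and an arm in the inner membrane that pumps protons. Its catalytic core is shared with bacteria, and is encoded partly in the nucleus and partly in mitochondrial DNA; accessory subunits surround it. Assembly factors join modules of the complex, insert cofactors or modify subunits and are absent from the finished enzyme. Several of them, among them NDUFAF1, ACAD9, ECSIT, TMEM126B and TIMMDC1, work together as the mitochondrial complex I assembly (MCIA) complex, which helps to build the membrane arm.

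Sequences are shown for 6 complex I genes because their values in the E4F1 shRNA libraries are described together further on. Each has the letters CTTATCT in at least 1 annotated 3′ UTR (GENCODE 29, GRCh38, sense strand), and 30 bases around each match are given 5′ to 3′ with the match in capitals. The letters were known from earlier results on these data, and their part in any change was not tested.

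NDUFAF3, first match: aatgctttcactCTTATCTaccctttggca
NDUFAF3, second match: taccctttggcaCTTATCTtgcttatcaac
NDUFS3, usual last exon: cctagacagcgcCTTATCTatgattgagtg
NDUFS3, alternative 3′ UTR: tataaagctgtcCTTATCTtatagaatggt
NDUFS1: atgagttgttggCTTATCTtcataaataat
TMEM126B: taagatacaggtCTTATCTcctgatggtgt
NDUFA5: ggtccaaagtccCTTATCTaaattcctaat
NDUFAF5: actctcaaatatCTTATCTacagaaactga

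The NDUFAF3 matches lay at chr3:49023229-49023235 and chr3:49023247-49023253 on the plus strand, 57 and 75 bases after the stop codon of a 323-base UTR, and all 4 annotated transcripts scanned held them. In NDUFS3 the matches were at chr11:47584515-47584521 and chr11:47581513-47581519 on the plus strand, each in 1 of 5 transcripts, the former 34 bases into an 81-base UTR. The word usual in its label above is not from these data, and which NDUFS3 3′ end the cells used was not measured. The NDUFS1 match was at chr2:206123891-206123897 on the minus strand in 3 of 7 transcripts, 288 bases after the stop codon. In TMEM126B the match stood at chr11:85636427-85636433 on the plus strand in 3 of 3 transcripts. NDUFA5 held its match at chr7:123537742-123537748 on the minus strand in 1 of 4 transcripts. The NDUFAF5 match was at chr20:13821540-13821546 on the plus strand in 1 of 2. The last of these sites lay far from their stop codons, 4371 bases in NDUFA5 and 4330 bases in NDUFAF5, in the only scanned transcript of each gene that held them.

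E4F1 itself was read 233, 286 and 297 times in control libraries 1, 2 and 3 and 51, 53 and 41 times in the E4F1 shRNA libraries. Its level fell by 2.57 on the log2 scale (SE 0.14, edgeR adjusted p = 7.66e-10), as the labels say. The libraries held 14947085 to 16892139 reads in genes, and the complex I genes together took 0.25% to 0.255% of these in every library. Control library 2 stood nearest to the E4F1 shRNA libraries (chi-square per degree of freedom 11.0 to 11.2, against 13.0 to 22.3 for the other controls), while replicates of a group differed by 2.45 to 6.36. Of 6 mesenchymal markers, 5 were above 1 CPM (CPM being reads scaled to the library's TMM-adjusted total in genes), and their summed level was 4880 to 5100 CPM in controls and 4350 to 4510 CPM with the E4F1 shRNA; COL1A2 was under 1 CPM. Blood markers summed to at most 2.5 CPM, with CD3E at 0, and endothelial markers to at most 0.866 CPM. Epithelial markers, mostly KRT8, summed to 269 to 307 CPM in controls and 258 to 283 CPM with the E4F1 shRNA.

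Most complex I genes differed little between the groups. NDUFS3, a core subunit, and NDUFAF3, an assembly factor, rose 2.25-fold and 3.55-fold, and the core subunit NDUFS1 rose 1.13-fold. Genes that fell numbered 7, by at most 0.31 on the log2 scale: the assembly factors NDUFAF8, TIMMDC1 and NDUFAF1, the subunits NDUFS6, NDUFA2 and NDUFS8, and NDUFA4 of complex IV. Of 55 genes, 52 had enough reads to be tested, and 10 passed (edgeR adjusted p under 0.05 over all genes tested), which is 19.2%. Among all 15765 genes tested, 28.9% passed, 14.4% as higher and 14.4% as lower. The median log2 fold change was -0.044 over the 52 genes and -0.01 over all genes tested. For 47 of the 52, the 95% interval of the log2 fold change lay within 0.5 of 0, and for 9356 of all 15765 genes tested. The width of an interval depends on its SE, whose median was 0.072 over the 52 genes and 0.091 over all genes tested. The 3 control and 3 E4F1 shRNA libraries did not overlap for 22 genes (7 higher, 15 lower), or 42.3%, against 41.8% of all genes tested. In bulk RNA, fewer cells that express a gene and less RNA per cell cannot be told apart.

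**Figure D1:**
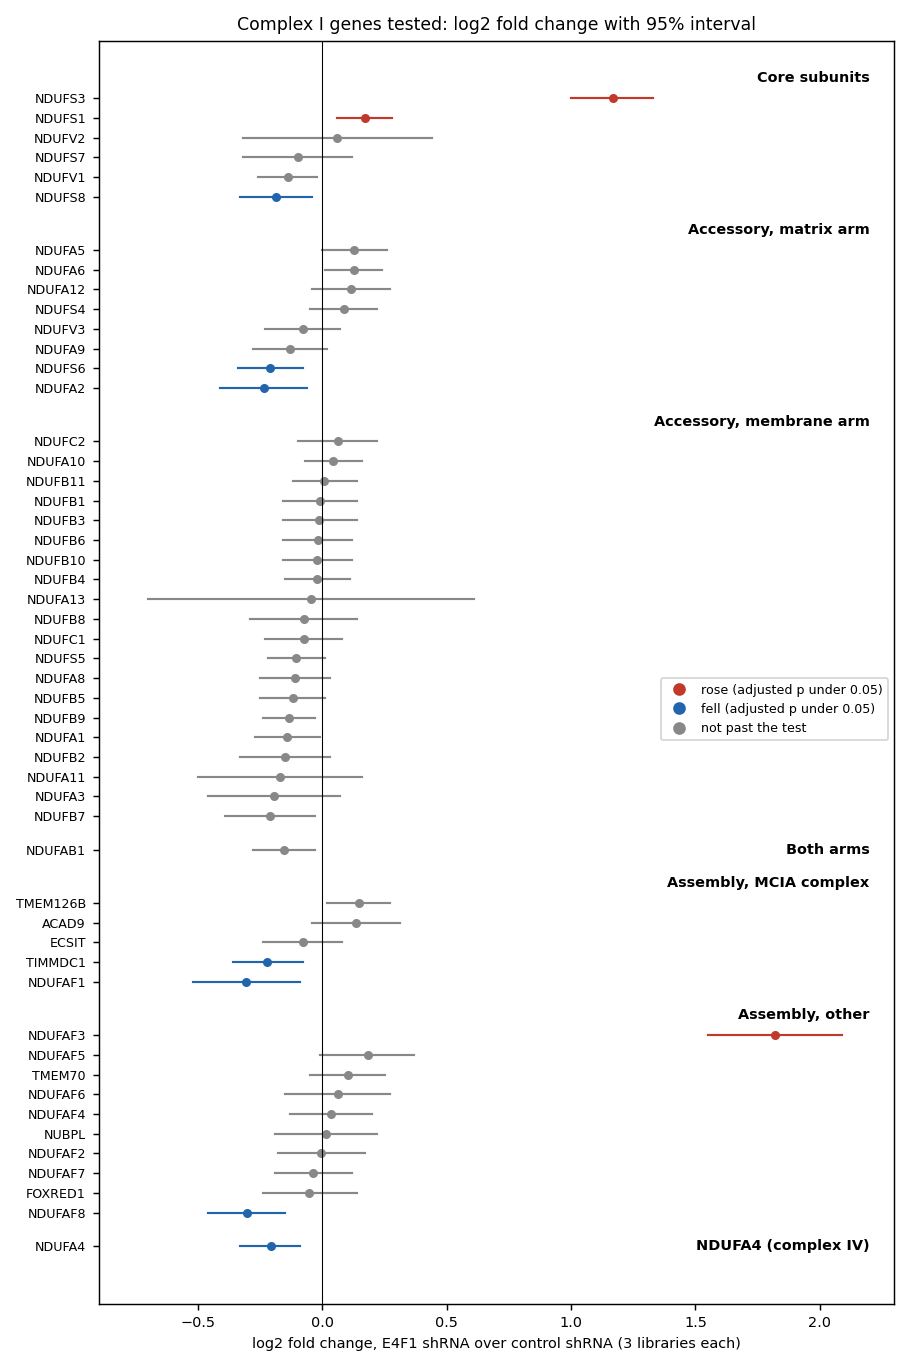
Log2 fold change (E4F1 shRNA over control shRNA, 3 libraries each) of complex I genes tested, on the horizontal axis, by role, with 95% intervals; red rose, blue fell, grey did not pass the test. NDUFAF3 (1.82) and NDUFS3 (1.17) stand far to the right, and all other genes shown lie between -0.31 and 0.18.

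The 7 nuclear-encoded core subunits carry the electron path of the matrix arm, and 2 of them rose and 1 fell (median log2 fold change -0.041). Those 3 are 42.9% of the 7, against 28.9% of all genes tested that passed. NDUFS3 (chr11:47565336-47584562, plus strand), part of the module that binds coenzyme Q, was at 29.8, 36.9 and 30 CPM in control libraries 1, 2 and 3 and at 69.7, 74.8 and 72.9 CPM with the E4F1 shRNA. Every E4F1 shRNA library was above every control, and control library 2 was the highest control. This rise was 1.17 on the log2 scale with an SE of 0.08 (edgeR adjusted p = 1.28e-08). An annotated long transcript of NDUFS3 runs through PTPMT1, a phosphatase gene on the same strand, whose log2 fold change was 0.22 (edgeR adjusted p = 0.0999). Every E4F1 shRNA library of PTPMT1 was above every control (15 to 16.3 against 12.2 to 14 CPM). NDUFS3 covers 71.6% of the principal transcript of PTPMT1, and shared reads were not assigned, so the PTPMT1 count is partial.

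NDUFS1 (chr2:206114817-206159603, minus strand), which holds iron-sulfur clusters near the NADH end, was at 144, 149 and 143 CPM in the controls and 167, 163 and 160 CPM with the E4F1 shRNA. The groups did not overlap, and the rise was 0.17 on the log2 scale (SE 0.05, edgeR adjusted p = 0.0174). It did not pass with an offset for GC content (with or without a replicate block) or for transcript length, nor without control library 3, E4F1 shRNA library 1 or E4F1 shRNA library 2. NDUFS8 (chr11:68030617-68036644), an iron-sulfur subunit near the coenzyme Q site, was at 52.2, 58.4 and 55.2 CPM in the controls and at 46.6, 47.2 and 52 CPM with the E4F1 shRNA. Its lowest control was just above the highest E4F1 shRNA library, and the fall of 0.19 on the log2 scale (SE 0.07, edgeR adjusted p = 0.0482) passed in only 5 of 17 alternative settings; its log2 value ran from -0.23 to -0.02 over them.

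Other core subunits did not pass the test. NDUFV1, which binds the flavin and NADH, had E4F1 shRNA libraries that all lay under the controls (73.5 to 78.4 against 82.8 to 87.2 CPM), with a log2 fold change of -0.14 (edgeR adjusted p = 0.0795). NDUFS7, the subunit with the last iron-sulfur cluster of the chain, had -0.10 (95% interval -0.32 to 0.12). NDUFV2, the iron-sulfur subunit beside NDUFV1, had 0.06 from 47 to 72 reads per library (-0.32 to 0.44).

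Of the 9 accessory subunits of the matrix arm, 8 were tested, 2 fell and none rose (median log2 fold change 0.005). The share that passed was 25%, against 28.9% of all genes tested. NDUFS6, a zinc-binding subunit (chr5:1801400-1816605), was at 71.2, 77.4 and 77.5 CPM in the controls and 66.4, 67.3 and 61.3 CPM with the E4F1 shRNA, with no overlap. It fell by 0.21 on the log2 scale (SE 0.06, edgeR adjusted p = 0.0158), but did not pass with the GC offset (with or without a replicate block), the length offset or without E4F1 shRNA library 3. NDUFA2 (chr5:140638740-140647785) was at 25.8, 25.6 and 29.3 CPM in the controls and 21.8, 23.8 and 23.0 CPM with the E4F1 shRNA. The groups were separate, and the fall was 0.23 on the log2 scale (SE 0.08, edgeR adjusted p = 0.0405); it passed in 6 of 17 alternative settings and, among those without 1 library, only without control library 2. The remaining 6 genes of this arm had log2 fold changes from -0.13 (NDUFA9) to 0.13 (NDUFA5 and NDUFA6).

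Of all genes tested, 28.9% passed the edgeR test, and none of the 20 accessory subunits of the membrane arm did. Among the 20, 3 had an unadjusted p under 0.05, while DESeq2 called 0 and limma-voom 1. Their log2 fold changes ran from -0.21 (NDUFB7) to 0.06 (NDUFC2), with a median of -0.074. Of the 20, 17 were below 0, as were 8097 of all 15765 genes tested. In 5 of them (25%) every E4F1 shRNA library was below every control library, and in none above. Among all genes tested the groups did not overlap, in either direction, for 41.8%. The smallest adjusted p among them belonged to NDUFB9, at 204, 208 and 209 CPM in the controls and 190, 191 and 185 CPM with the E4F1 shRNA. These groups were separate, with a log2 value of -0.13 (SE 0.05, edgeR adjusted p = 0.0519), and 3 of 17 alternative settings put it past the threshold. NDUFB5 passed as lower with the GC offset, with or without a replicate block, and NDUFA3 passed as lower without E4F1 shRNA library 1. NDUFAB1, the acyl carrier protein that sits in both arms, was at 57.9, 60.8 and 60.3 CPM in the controls and 53.7, 55.4 and 51.6 CPM with the E4F1 shRNA. Its groups did not overlap either, at a log2 value of -0.15 (SE 0.06, edgeR adjusted p = 0.0645).

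**Figure D2:**
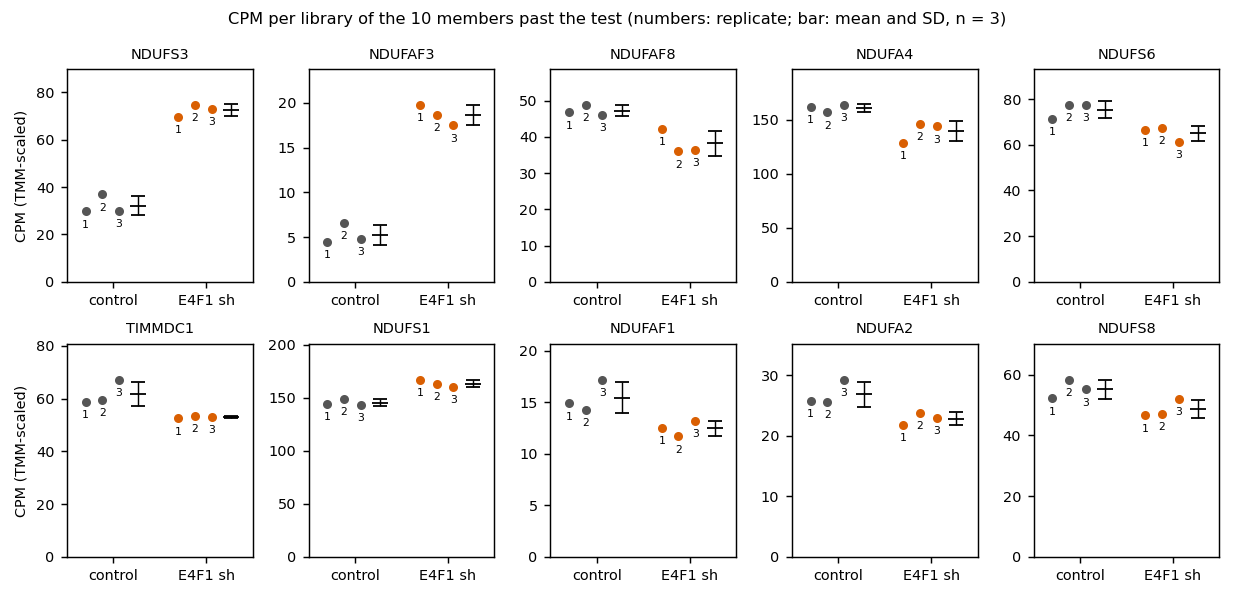
CPM (TMM-scaled, linear axis from 0) in each library of the 10 genes past the test, with replicate numbers; bars give mean and SD (n = 3). The groups do not overlap in any panel, and the gap is wide in NDUFS3 and NDUFAF3 and narrow in the other 8.

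Among the 15 assembly factors 1 rose and 3 fell, 26.7% in either direction against 28.9% of all genes tested. NDUFAF3 (chr3:49020459-49023495, plus strand), which works with NDUFAF4 on the early module that binds coenzyme Q, was at 4.48, 6.56 and 4.76 CPM in control libraries 1, 2 and 3 and 19.8, 18.7 and 17.5 CPM with the E4F1 shRNA. These values rest on 67, 106 and 74 reads and on 318, 314 and 287 reads. The lowest E4F1 shRNA library was well above the highest control, which was again control library 2. That rise came to 1.82 on the log2 scale with an SE of 0.13 (edgeR adjusted p = 3.01e-08). NDUFAF4, its partner, had 0.04 (95% interval -0.13 to 0.20). DALRD3, which overlaps NDUFAF3 on the opposite strand, fell by 0.32 on the log2 scale (edgeR adjusted p = 0.0254).

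NDUFAF8 (chr17:81239239-81241281), which stabilizes NDUFAF5, was at 46.8, 48.9 and 46.1 CPM in the controls and 42.3, 36 and 36.5 CPM with the E4F1 shRNA. It fell by 0.31 on the log2 scale without overlap (SE 0.07, edgeR adjusted p = 0.00463), and did not pass with the GC offset, with or without a replicate block (largest adjusted p over the alternatives 0.135). NDUFAF5, which hydroxylates an arginine of NDUFS7, was at 14, 14.5 and 13.5 CPM in the controls and 16.0, 15.5 and 16.0 CPM with the E4F1 shRNA. The groups were separate, but the log2 fold change of 0.18 did not pass (edgeR adjusted p = 0.146).

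Of the 5 genes listed here for the MCIA complex, from general knowledge and perhaps not all its members, 2 fell and none rose. That is 40% in either direction, against 28.9% of all genes tested, and holds for the listed genes only. Further assembly genes, among them COA1, which rose, are described below and were not counted here for the MCIA complex. TIMMDC1 (chr3:119498532-119525090), a membrane protein of this complex, was at 58.7, 59.6 and 67.2 CPM in the controls and at 52.5, 53.5 and 53.1 CPM with the E4F1 shRNA. It fell by 0.22 on the log2 scale without overlap (SE 0.07, edgeR adjusted p = 0.0168); it did not pass without control library 3 or without any 1 of the E4F1 shRNA libraries. NDUFAF1 (chr15:41387349-41402519), a chaperone, was at 14.9, 14.3 and 17.2 CPM in the controls and 12.5, 11.7 and 13.2 CPM with the E4F1 shRNA. It fell by 0.31 on the log2 scale (SE 0.10, edgeR adjusted p = 0.0313), and the call was lost with DESeq2, with the length offset and when control library 1, control library 3, E4F1 shRNA library 1 or E4F1 shRNA library 2 was left out. TMEM126B, a membrane member, was higher in every E4F1 shRNA library (61.4 to 62.1 against 53.5 to 57.6 CPM) with a log2 fold change of 0.15 that did not pass (edgeR adjusted p = 0.0757). ACAD9, an acyl-CoA dehydrogenase that also serves assembly, had 0.14 (adjusted p = 0.252) and ECSIT, also known from immune signalling, -0.08 (adjusted p = 0.458).

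The assembly factors that remain did not pass. TMEM70, which also serves ATP synthase, had a log2 fold change of 0.10 (95% interval -0.05 to 0.25), and NDUFAF6 had 0.06 (-0.15 to 0.27). NUBPL, which supplies iron-sulfur clusters, had 0.02 (-0.19 to 0.22), and NDUFAF2, which acts late on the matrix arm, had 0.00 (-0.18 to 0.17). NDUFAF7, a protein methyltransferase, had -0.04 (-0.19 to 0.12), and FOXRED1 had -0.05 (-0.24 to 0.14). So for each of these 6 the interval excludes a change of 0.5 on the log2 scale.

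Set side by side, 5 of 36 subunits tested (13.9%) and 4 of 15 assembly factors (26.7%) passed the test, against 28.9% of all genes. Median log2 fold changes were -0.074 for subunits (26 of 36 below 0) and 0.016 for assembly factors (7 of 15 below 0), and 8097 of all 15765 genes tested were below 0. Without overlap between groups were 15 subunits (41.7%) and 6 assembly factors (40.0%), against 41.8% of all genes tested. Per kilobase of principal transcript, the subunits had a median level of 41.0 CPM over all libraries, from 1.02 (NDUFA13) to 278 (NDUFB9). The assembly factors had a median of 12.3 CPM per kilobase, from 2.7 (NDUFAF5) to 69.6 (NDUFAF8). The ranges of the 2 classes overlap.

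In each library the median log2 level of assembly factors per length was set against that of subunits. It was lower by a log2 difference of -1.792, -1.666 and -1.776 in control libraries 1, 2 and 3 and of -1.427, -1.715 and -1.79 in E4F1 shRNA libraries 1, 2 and 3. The groups overlapped, and the difference between their means was 0.10, less than the pooled SD of 0.144 between libraries. It was -0.00825 without E4F1 shRNA library 1. Dividing by the median length of each gene's coding transcripts, a choice made after seeing the data, gave 0.624 in place of 0.10. A gene has the same length in every library, so this choice acts only through which genes stand at the medians. With means over genes in place of medians, the difference was 0.127. The value of 0.624 therefore does not describe the class as a whole.

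**Figure D3:**
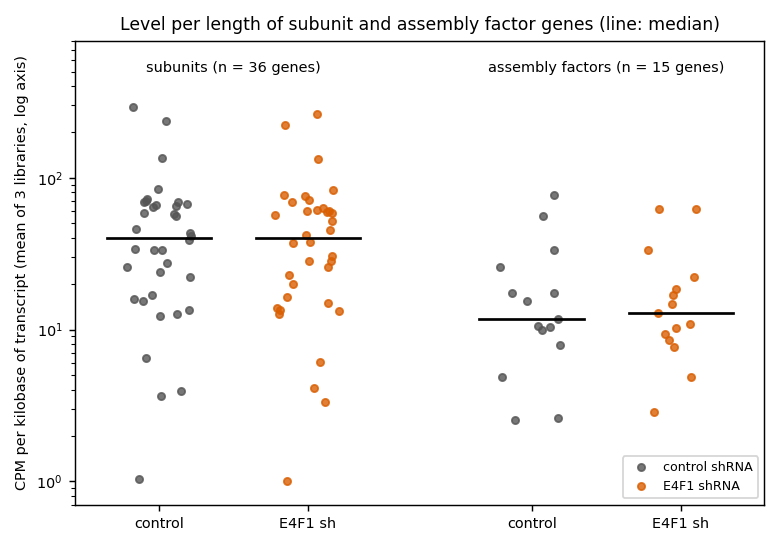
Mean CPM per kilobase of principal transcript (log axis) of 36 subunit and 15 assembly factor genes in each group of 3 libraries; each point is a gene and the line is the median. Most assembly factors lie below the subunit median, and the 2 groups of libraries look alike within each class.

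The split of higher and lower calls depended on an offset for transcript length. The principal transcript had a median of 960 bases in the subunits tested, 2010 bases in the assembly factors and 2960 bases in all genes tested. With that offset, 7 complex I genes passed as higher and 3 as lower, in place of 3 and 7. Among subunits 5 then passed as higher and none as lower, in place of 2 and 3. NDUFA5, NDUFA6, NDUFA12, NDUFS4 and TMEM126B, with log2 values of 0.185 to 0.239, were then among the higher genes, and NDUFAF8, TIMMDC1 and NDUFA4 were the 3 lower ones. NDUFS3 (1.26) and NDUFAF3 (1.87) passed as before. Fewer libraries also moved the count of genes that fell: it was 3 when control library 1, control library 3, E4F1 shRNA library 1 or E4F1 shRNA library 2 was left out, 4 without E4F1 shRNA library 3, and 6 without control library 2.

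NDUFS3 and NDUFAF3 passed in all 17 alternative settings, with log2 fold changes from 1.12 to 1.29 and from 1.73 to 2.02. NDUFA4 passed in 15 settings. This subunit of complex IV (chr7:10931951-10940256) was at 162, 157 and 164 CPM in the controls and 129, 146 and 144 CPM with the E4F1 shRNA, with no overlap. It fell by 0.21 on the log2 scale (SE 0.06, edgeR adjusted p = 0.0107), but did not pass without control library 1 or without E4F1 shRNA library 1.

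Of the 55 complex I genes, 6 (10.9%) have CTTATCT in an annotated 3′ UTR, against 2065 of 19121 genes (10.8%), searched on the transcribed strand alone. The windows printed above belong to these 6, and they include all 3 genes that rose. The 6 had log2 fold changes from 0.13 to 1.82, with a median of 0.177, and in each of them the groups of libraries were separate and the E4F1 shRNA libraries higher. They make up 6 of the 7 complex I genes with that arrangement (NDUFA6 is the other), and none of the 15 genes that were lower without overlap has the letters. Among the 46 genes tested without the letters, none rose and 7 fell, with a median of -0.074 and a range from -0.31 to 0.14. Among other genes with the letters, 37.3% of 1637 rose and 8.31% fell, and among other genes without them, 13.7% of 11393 rose and 16.5% fell. The letters were known from earlier results on these data, so all these counts are a description and no test of the letters. UTR length was not matched between genes with and without them. The sizes differed widely among the 6: NDUFAF3 had 1.82 and NDUFS3 1.17, while NDUFAF5, NDUFS1, TMEM126B and NDUFA5 had 0.18, 0.17, 0.15 and 0.13, and of these 4 only NDUFS1 passed the test.

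**Figure D4:**
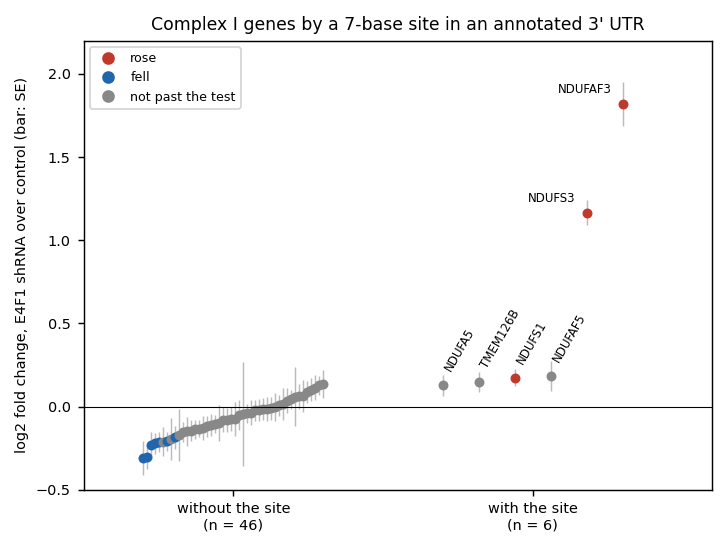
Log2 fold change (vertical axis, bars are SE) of the 52 complex I genes tested, sorted within 46 genes without CTTATCT in an annotated 3′ UTR and 6 with it; red rose, blue fell, grey did not pass. All 6 with the letters lie above 0, from 0.13 to 1.82, and ACAD9 is the highest of the rest at 0.14.

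Promoters were read from RefSeq (GRCh38.p14, 250 bases before to 50 after each start), and 45 of the 55 genes were matched. TGACGTAA, the core of the binding site described for E4F1, was searched on both strands and stands in 140 of 27305 genes (0.513%). Among the 45 it is found in NDUFB6 alone, a subunit of the membrane arm. The 80 bases around it, chr9:32573145-32573224 on the minus strand and shown for that reason, have the match in capitals, beginning 29 bases before the start.

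NDUFB6 promoter: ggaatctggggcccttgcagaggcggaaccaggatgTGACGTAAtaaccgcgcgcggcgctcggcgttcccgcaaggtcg

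NDUFB6 did not pass the test: it was at 66.8, 59.2 and 62.2 CPM in the controls and 57.8, 64.7 and 63.4 CPM with the E4F1 shRNA, a log2 fold change of -0.02 (95% interval -0.16 to 0.12). The shorter TGACGT, which lies within the former, is found in 9 of the 45 promoters (20%). It stands in 9.64% of all 27305 genes with a promoter, most of them not tested here. Among the 10367 genes tested that had both a promoter and an annotated 3′ UTR, it stands in 1436. Those 9 belong to ACAD9, NDUFA1, NDUFA10, NDUFA7, NDUFB2, NDUFB6, NDUFV1, NDUFV3 and NUBPL. NDUFA7 was not tested and the other 8 did not pass. Of the 1436 genes with these letters, 15.3% fell and 18% rose, against 15.2% and 17.1% of the 10367. GCATGCGC, the core of the NRF1 site known from many respiratory genes, is found in 8 of the 45 (17.8%). Of all 27305 genes 3.68% have it, and of the same 10367 genes 656 do. These 8 are NDUFA5, NDUFA6, NDUFA8, NDUFAF4, NDUFAF5, NDUFB4, NDUFS6 and NDUFS7, of which NDUFS6 fell and the others did not pass. Of the 656 genes with these letters, 12% fell and 17.1% rose. Such matches describe letters and show no binding.

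The core of the membrane arm is encoded by 7 genes of mitochondrial DNA, and 5 of these fell and 1 rose, with a median log2 fold change of -0.259. This is 85.7% in either direction, against 28.9% of all genes tested. MT-ND4, a proton-pumping subunit, was at 6250, 5950 and 6370 CPM in the controls and 5350, 4770 and 4650 CPM with the E4F1 shRNA. It fell by 0.33 on the log2 scale (SE 0.06, edgeR adjusted p = 0.000683), and the groups did not overlap. MT-ND5 fell by 0.29 (adjusted p = 0.001), MT-ND4L by 0.27 (adjusted p = 0.00291), MT-ND1 by 0.26 (adjusted p = 0.00537) and MT-ND3 by 0.19 (adjusted p = 0.0172). MT-ND2 had -0.01 (adjusted p = 0.922). Reads of the whole mitochondrial chromosome took 6.16% to 6.52% of gene reads in controls and 5.02% to 5.66% with the E4F1 shRNA.

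MT-ND6, the subunit gene on the other strand of mitochondrial DNA, was at 569, 498 and 449 CPM in the controls and 751, 596 and 627 CPM with the E4F1 shRNA. The groups did not overlap, and it rose by 0.38 (SE 0.08, edgeR adjusted p = 0.00265). With the count that ignores strand, the value of MT-ND5 was 0.0526 (adjusted p = 0.579) in place of -0.29, MT-ND6 did not pass (adjusted p = 0.17), and 2 genes fell and none rose. With the length offset 2 of the 7 fell, MT-ND4 and MT-ND5, and without E4F1 shRNA library 2 the number was 3.

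**Figure D5:**
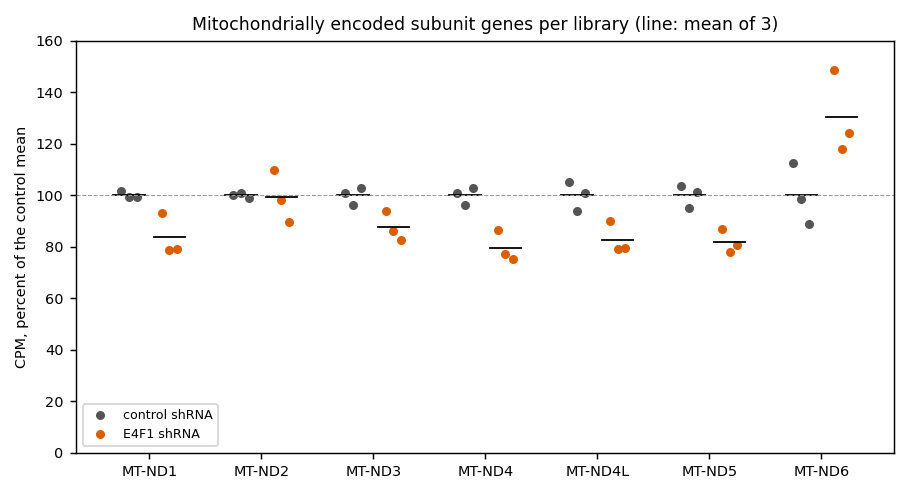
CPM of the 7 mitochondrially encoded subunit genes in each library, as percent of the mean of the 3 controls (linear axis from 0); lines are means of 3. In 5 genes all E4F1 shRNA libraries lie below all controls, MT-ND2 overlaps, and MT-ND6 lies above.

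Genes that serve the complex without belonging to it were listed in 4 groups, and 5 of 42 tested rose and 7 fell. Of all genes tested, 14.4% rose and 14.4% fell, 28.9% in either direction. Among 9 further assembly genes, COA1 rose (log2 fold change 0.16, edgeR adjusted p = 0.0286) and DMAC1, a membrane-arm assembly factor, fell by 0.42 (adjusted p = 0.000859); the median was 0.05. Of 13 genes of iron-sulfur cluster supply, ISCA2 rose (0.33, adjusted p = 0.00267), while FDXR, the ferredoxin reductase, fell by 0.46 (adjusted p = 0.00104) and ISCU, the scaffold, by 0.24 (adjusted p = 0.017); the median was -0.042. Coenzyme Q is the electron acceptor of complex I, and of 11 genes of its synthesis 2 rose and 4 fell. PDSS2, which makes its side chain, was at 13.1, 14 and 13.9 CPM in the controls and 6.68, 7.97 and 6.59 CPM with the E4F1 shRNA. The E4F1 shRNA libraries were all far below the controls, a fall of 0.95 on the log2 scale (SE 0.11, adjusted p = 1.1e-05). COQ2 rose (0.33, adjusted p = 0.00784), COQ8A fell by 0.35 (adjusted p = 0.00961) and COQ6 by 0.24 (adjusted p = 0.0338). Other enzymes pass electrons to coenzyme Q directly, and of 9 tested, GPD2 rose (0.38, edgeR adjusted p = 0.000315) and the others did not pass. ETFDH had -0.29 (adjusted p = 0.0558), with every E4F1 shRNA library below every control. SQOR had -0.71 (adjusted p = 0.118) from 10 to 24 reads per library, and CHDH had 0.29 (adjusted p = 0.346). The 4 complex II subunits SDHA, SDHB, SDHC and SDHD had log2 fold changes from -0.05 to 0.02.

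Counts of some subunits cover only part of their RNA. Reads shared with an overlapping gene on the same strand were not assigned, and such a gene covers 82.9% of the principal transcript of NDUFV2, 75.9% of NDUFA7, 71.7% of NDUFB8, 67.0% of NDUFA11 and 44.1% of NDUFA13. NDUFA7 was read only 2, 4 and 5 times in the controls and 10, 1 and 1 times with the E4F1 shRNA, and was not tested. The levels per length of these 5 genes are therefore lower limits, and NDUFA13, the lowest subunit tested, had 11 to 21 reads per library. NDUFA4L2 had at most 1 read per library and NDUFC2-KCTD14 none, so neither was tested. Several subunits also have annotated pseudogenes, and reads that map equally well to both were not counted.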

How the data were processed

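Each library came with 1 deposited table of raw counts by gene, laid out as STAR writes it. The submitters' processing notes name bcl2fastq 2.20, STAR 2.5.1b and the build GRCh38; for the annotation release, the sources used here give none. Columns for both strands are given; the reverse-strand column was used (14947085 to 16892139 reads in genes, against 885046 to 977742 on the forward strand). Lines that name no gene held 27.1% to 31.7% of each table and were left out.

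Symbols, coordinates (1-based), transcript lengths, GC content and 3′ UTRs came from GENCODE 29, which matched 57881 of 58219 identifiers without version and 55050 with it. Counts were filtered (filterByExpr), scaled (TMM) and tested with edgeR 4.0.16 in R 4.3.3 (quasi-likelihood F-test, two-sided, group as the only term), with Benjamini-Hochberg adjustment over 15765 genes and a threshold of 0.05. CPM values are TMM-scaled; a log2 fold change above 0 means higher with the E4F1 shRNA. The p-values measure the spread between pools, and 3 against 3 libraries allow no exact permutation p below 0.1. The script was checked on simulated data. The alternatives were DESeq2 1.42.0, limma-voom (limma 3.58.1), other scalings and filters, GC and length offsets, a replicate block, counts without strand, and each library left out. Same-numbered libraries did not deviate together (correlations 0.007, 0.047 and 0.048), so the numbers were not taken as pairs.

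Genes, lists and roles were chosen with earlier results of these data known. Named were E4F1, all members past the test, core subunits, all assembly factors, NDUFA4, NDUFA4L2, untested members, the mitochondrial genes and up to 4 genes per further list with the smallest adjusted p; library values were given for the 12 members with the smallest adjusted p. Other names were added for their range, a sequence match or overlap after their values were seen. The complex II subunits were named outside these rules. The values of some single genes are not reported here, though the counts and medians include them.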

Additional observations from a re-analysis of the deposited data

How the results depend on the processing

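The replicate block left 3 complex I genes higher and 7 lower, as without it, and moved no count here by over 1.5 times. DESeq2 gave 4 lower genes in all, with 1 lower subunit, and without a low-count filter 1 subunit fell. The GC offset, with or without the replicate block, gave 4 lower genes, 1 higher subunit (NDUFS3) and 1 lower subunit (NDUFB5, in place of NDUFS6, NDUFA2 and NDUFS8), and 3 higher pathway genes beside the complex. The length offset gave 7 higher and 3 lower genes, 5 higher and 0 lower subunits, 2 higher assembly factors, 2 lower mitochondrial genes and 4 lower pathway genes. Without strand, 0 mitochondrial genes rose and 2 fell, and MT-ND5 was at 0.0526. With median coding length, the difference between groups in the level of assembly factors against subunits was 0.624. That choice alters only which genes stand at the medians. Causes of the other shifts were not tested. Leaving out each library gave 2 to 4 higher and 3 to 6 lower genes, 1 to 3 higher and 1 to 2 lower subunits, 1 to 3 lower assembly factors, 3 to 5 lower mitochondrial genes, 3 to 5 higher and 4 to 6 lower pathway genes, a level difference of -0.00825 to 0.174, and 1605 to 2833 higher and 1419 to 2537 lower genes in all. For genes of few reads, such as NDUFA13 and NDUFV2, depth limits the estimate: their standard errors of the log2 fold change were 0.31 and 0.18, against a median of 0.072 over the complex I genes tested.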
